A study of Mus musculus with 5 samples.

Results

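The AP-1 and immediate early genes examined here were Fos, Fosb, Jun, Junb, Jund, Egr1, Ier2, Atf3, Dusp1 and Zfp36. All probe sets annotated to exactly 1 of these 10 gene symbols were taken, which gave 10 genes of the 18193 so named and 12 probe sets of the 45037 tested, with 2 each for Jun and Jund. They were measured in dorsal pancreatic buds of C57BL/6J mouse embryos at E10.5 (embryonic age in days) on Affymetrix whole-genome arrays. There were 2 arrays of Ptf1a heterozygote buds and 3 of Ptf1a null buds, and all embryos came from matings between heterozygotes. No wild-type array was part of the comparison, so both groups carried at least 1 mutant allele of Ptf1a, a transcription factor needed for pancreas formation, and the labels do not describe the lesion. Each array received RNA pooled from 3 buds, amplified in 2 linear rounds from the poly(A) tail. Buds were freed of mesenchyme by hand and frozen singly until genotyped.

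Immediate early genes are transcribed within minutes of a stimulus, without new protein synthesis, and their mRNAs decay quickly. Growth factors and cellular stress induce them, largely through MAP kinases acting on SRF with its ternary complex partners and on CREB. AP-1 is a dimer of basic leucine zipper proteins, in which Fos proteins pair with Jun proteins and Jun proteins can also pair with each other.

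The sequences upstream of 5 members are shown because their signals differed most between arrays (Fos, Fosb, Junb and Dusp1) or separated the genotypes at a bright probe set (Jun). Each run is the 250 bases before the start of the gene, 5′ to 3′ on the gene's strand, from RefSeq, build GRCm38.p6. Fos lies at chr12:85473640-85473889 on the plus strand. The others are on the minus strand, Fosb at chr7:19310046-19310295, Junb at chr8:84978749-84978998, Jun at chr4:95052223-95052472 and Dusp1 at chr17:26508473-26508722. Capitals mark matches on either strand to the cAMP response element TGACGTCA, its half-site TGACG, the Jun-type site TGACATCA and the TATA box TATAAA.
Fos: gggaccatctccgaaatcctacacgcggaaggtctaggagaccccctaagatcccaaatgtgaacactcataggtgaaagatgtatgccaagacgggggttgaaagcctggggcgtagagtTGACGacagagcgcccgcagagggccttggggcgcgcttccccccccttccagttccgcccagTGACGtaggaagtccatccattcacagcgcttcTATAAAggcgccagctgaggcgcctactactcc
Fosb: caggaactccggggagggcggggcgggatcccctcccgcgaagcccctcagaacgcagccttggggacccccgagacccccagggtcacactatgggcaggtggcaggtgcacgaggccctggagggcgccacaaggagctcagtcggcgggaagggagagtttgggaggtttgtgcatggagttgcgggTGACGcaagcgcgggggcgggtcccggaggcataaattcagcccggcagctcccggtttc
Junb: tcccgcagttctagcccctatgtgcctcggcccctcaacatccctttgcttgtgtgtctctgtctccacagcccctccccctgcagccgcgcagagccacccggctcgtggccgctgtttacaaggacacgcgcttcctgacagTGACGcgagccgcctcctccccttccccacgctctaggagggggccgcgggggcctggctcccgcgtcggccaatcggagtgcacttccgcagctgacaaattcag
Jun: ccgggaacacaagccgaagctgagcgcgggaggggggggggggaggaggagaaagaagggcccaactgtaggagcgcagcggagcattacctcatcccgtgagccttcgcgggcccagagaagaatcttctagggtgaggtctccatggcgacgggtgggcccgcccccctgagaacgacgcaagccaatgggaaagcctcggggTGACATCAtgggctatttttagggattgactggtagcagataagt
Dusp1: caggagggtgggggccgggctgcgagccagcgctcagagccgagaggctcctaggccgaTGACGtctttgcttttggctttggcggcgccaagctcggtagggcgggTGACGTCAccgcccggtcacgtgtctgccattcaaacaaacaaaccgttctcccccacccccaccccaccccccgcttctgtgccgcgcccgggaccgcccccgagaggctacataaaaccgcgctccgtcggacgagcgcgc

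Of the 10 members, 8 had an upstream sequence in the RefSeq table. The half-site TGACG was found in 5 of these 8, among them Fos, Fosb, Junb and Dusp1, and in 17.8% of 32851 upstream sequences of the same length. In Fos it began 129 and 66 bases before the start, in Fosb 60 bases and in Junb 106 bases before it. The full element TGACGTCA, which contains the half-site on both strands, was found upstream of Dusp1 alone among the 8, and in 1.55% of all. Jun held the site TGACATCA, present in 2.93% of all, Fos a TATA box, present in 12.4%, and Zfp36 held a CArG box, the motif bound by SRF, present in 1.47%. The classical AP-1 site TGACTCA was in none of the 8 and in 4.46% of all. A match describes letters in this window and is not evidence of binding.

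Array medians ranged from 13.7 to 17.5 intensity units, and between 60.9% and 65.2% of probe sets lay above background on an array. Background was the upper end (95th percentile) of 27 control probe sets for bacterial genes, at 3.03 to 3.29 on the normalised log2 scale. All values below are on that scale, and a difference is null minus heterozygote. The 3′ end of Gapdh exceeded its 5′ end by 1.52 to 1.69 on the heterozygote arrays and by 1.41 to 1.46 on the null arrays. For actin the same excess was 0.71 and 0.62 on the heterozygote arrays and 0.65, 0.71 and 0.57 on the nulls, which overlapped. Ptf1a signal was 7.10 and 7.33 on the heterozygote arrays and 5.21, 6.07 and 5.00 on the nulls, a difference of -1.79 (limma adjusted p = 0.651). Every null array was therefore below both heterozygotes for the targeted gene, although where its probe set lies relative to the lesion is not given. Of the bud epithelium markers, 9 of 9 measured were above background on every array.

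None of the members was called by the test, and the largest differences lay in genes whose signal was close to background. Signals were lower in null buds for 9 of the 10 genes at their brightest probe set, with a median difference of -0.41. Over all probe sets tested the median was -0.0099, and 50.7% were lower in nulls. The test was limma's moderated fit to all 45037 probe sets with Benjamini-Hochberg adjustment, and it called 0 of the 12 member probe sets against 0.00% of all tested. Since this fit called no probe set, that of Ptf1a included, the absence of calls does not show that the members were unchanged. A second form of the fit, in which the prior variance follows signal level (the trended fit), also called 0 of 12, against 0.0178% of all. At an unadjusted p under 0.05 the counts were 0 of 12 against 5.52% of all in the first fit, and 1 of 12 against 4.93% in the trended fit. Adjusted p ranged from 0.935 to 0.999 across the members in the first fit and from 0.976 to 0.996 in the trended fit.

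The median difference depended on the treatment of dim values and on single arrays. When values under background were set to the background level it was -0.085, against -0.060 for all probe sets treated in the same way. It was -0.13 over the 8 genes left when a probe set had to exceed background on at least 2 arrays, -0.15 with an offset of 16 added before the logarithm, -0.85 without heterozygote replicate 1 and -0.63 without null replicate 1. In pools of whole buds, fewer cells expressing a gene and less RNA per cell cannot be told apart.

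**Figure D1:**
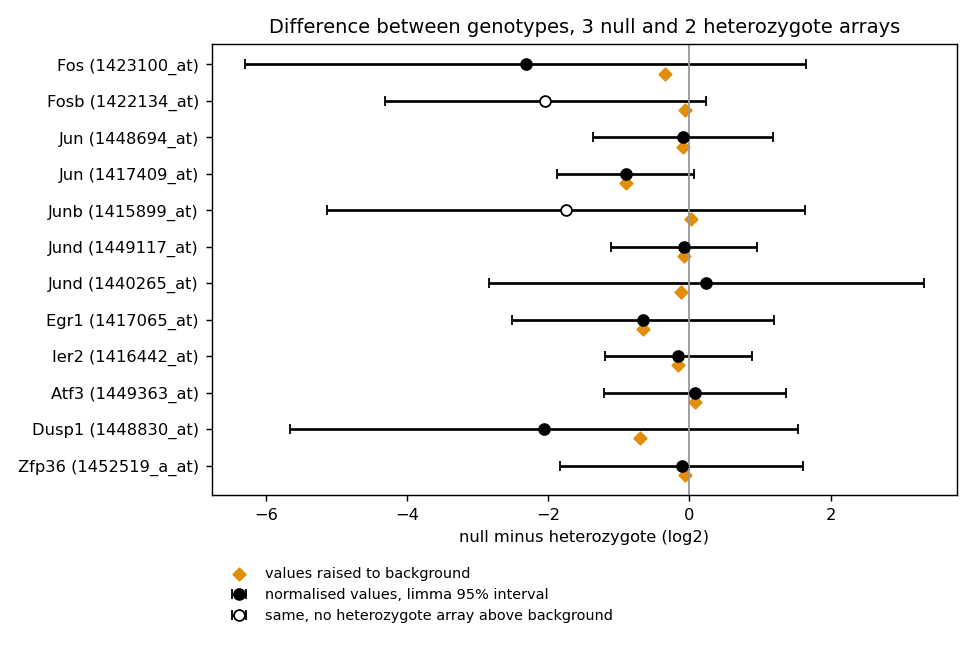
Difference between null and heterozygote buds in log2 signal for each of the 12 probe sets, with limma's 95% interval (circles and bars, 3 null and 2 heterozygote arrays, open for Fosb and Junb, where no heterozygote array was above background) and with values raised to background (diamonds). Every interval includes 0, and raising values to background brings the difference for Fos from -2.32 to -0.34.

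Among the Fos subunits, Fos itself was the member with the widest swings. Fos encodes the prototype AP-1 partner of Jun. Its deposited intensity (1423100_at) was 13.2 and 14.6 in the heterozygotes, then 2.72, 0.470 and 17.2 in nulls 1 to 3. On the normalised log2 scale these were 3.57 and 3.98, then 1.42, -1.10 and 4.05. Null replicate 3 was the highest of all 5 arrays and the other 2 nulls were the lowest, below background, so the groups overlapped. The means were 3.77 ± 0.29 (SD, n = 2) and 1.45 ± 2.57 (SD, n = 3), a difference of -2.32 (SE 1.54, limma adjusted p = 0.991). It was -3.62 without null replicate 3 (adjusted p = 0.679) and -1.04 without null replicate 2.

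Fosb, a close relative of Fos with the same dimer partners, was not above background on any array (1422134_at). Its values were 2.95 and 3.18 in heterozygotes and 0.88, -0.30 and 2.49 in nulls. All nulls were lower, and null replicate 3 was again the nearest to the heterozygotes. No fold is given because neither group rose above background, and the limma adjusted p was 0.942.

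Jun, the main Jun-family subunit, was bright and gave different readings at its 2 probe sets. At 1448694_at the signal was 7.68 and 8.81 in heterozygotes and 8.16, 8.43 and 7.87 in nulls. The nulls fell between the heterozygotes, and the difference was -0.094 (SE 0.49, limma adjusted p = 0.999). At 1417409_at it was 6.87 and 7.34 in heterozygotes and 6.28, 6.37 and 5.96 in nulls, so that every null lay below both heterozygotes. The means there were 7.11 ± 0.33 (SD, n = 2) and 6.20 ± 0.22 (SD, n = 3), a 1.87-fold lower signal in nulls (difference -0.90, SE 0.38). The limma adjusted p was 0.935 in the first fit and 0.976 in the trended fit, whose unadjusted p under 0.05 was the only one among the members. With an array left out the difference ranged from -1.14 to -0.67, and it stayed negative under each alternative run. The sources used here do not say which part of the transcript each probe set reads.

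Junb, a Jun-family subunit that can oppose Jun at some promoters, followed Fos rather than Jun across the arrays. Its signal (1415899_at) was 3.00 and 2.19 in heterozygotes and -0.69, -0.07 and 3.29 in nulls. Only null replicate 3 rose above background, and it exceeded both heterozygotes, which were below it. The means were 2.59 ± 0.57 (SD, n = 2) and 0.85 ± 2.14 (SD, n = 3), with limma adjusted p = 0.991. With values raised to background the difference was 0.015, so its direction depended on values under background.

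Jund, the Jun-family subunit usually expressed without a stimulus, was the steadiest member among null arrays. At 1449117_at its signal was 6.43 and 5.67 in heterozygotes and 5.96, 5.87 and 6.09 in nulls, a difference of -0.076 (SE 0.40, limma adjusted p = 0.999). The 3 nulls lay within 0.22 of each other, between the 2 heterozygotes. The dimmer probe set 1440265_at read 0.30 and 3.61 in heterozygotes and 1.95, 1.26 and 3.35 in nulls. It was above background on 2 arrays, 1 of each genotype, and its 2 heterozygote values spanned all 3 nulls (difference 0.24, limma adjusted p = 0.999).

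Egr1, a zinc finger factor induced with Fos through SRF, was above background on all 5 arrays. Its signal (1417065_at) was 5.03 and 5.80 in heterozygotes and 5.80, 4.72 and 3.74 in nulls. Null replicate 1 matched the higher heterozygote to 2 decimals and null replicate 3 was the lowest, which is the reverse of the order of those 2 arrays for Fos. The means were 5.42 ± 0.54 (SD, n = 2) and 4.76 ± 1.03 (SD, n = 3), a difference of -0.66 (SE 0.72, limma adjusted p = 0.999). It was -0.16 without null replicate 3 and -0.28 without heterozygote replicate 2, but -1.18 without null replicate 1 and -1.05 without heterozygote replicate 1.

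Ier2, a small nuclear protein of the early response, read 5.42 and 5.03 in heterozygotes and 5.14, 4.68 and 5.38 in nulls. The groups overlapped, with a difference of -0.16 (SE 0.40, limma adjusted p = 0.999). Atf3, a stress-induced factor of the ATF family that pairs with Jun proteins, read 3.89 and 4.05 in heterozygotes and 4.05, 3.40 and 4.69 in nulls. It was above background on every array, with both the highest and the lowest value among the nulls. Atf3 was the only gene of the 10 with a positive difference at its brightest probe set, at 0.078 (SE 0.50, limma adjusted p = 0.999).

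The feedback genes differed from each other. Dusp1 encodes a phosphatase that switches MAP kinases off. Its signal (1448830_at) was 4.07 and 3.96 in heterozygotes and 2.75, 3.79 and -0.66 in nulls. Every null was below both heterozygotes, null replicate 2 only slightly and null replicate 3 by the most, and null replicates 1 and 3 were under background. The difference was -2.06 (SE 1.39, limma adjusted p = 0.991), -0.71 with values raised to background and -0.75 without null replicate 3. Zfp36 encodes tristetraprolin, which destabilises AU-rich mRNAs, including those of early response genes. Its signal (1452519_a_at) was 4.60 and 3.74 in heterozygotes and 4.41, 3.04 and 4.73 in nulls, which overlapped (difference -0.11, SE 0.67, limma adjusted p = 0.999).

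In all, every null was below both heterozygotes at 3 of the 12 probe sets (Fosb, Jun at 1417409_at and Dusp1), against 10.1% of all probe sets tested. Every null was above both at 0 of 12, against 9.90% of all. Of the 3, only Jun was above background on every array. With fewer arrays both the count and the share of all probe sets were larger. The count was 6 without heterozygote replicate 1 (26.9% of all) and 5 without heterozygote replicate 2 (24.6%). It was 4 without null replicate 1 (16.7%), 3 without null replicate 2 (16.2%) and 5 without null replicate 3 (16.6%).

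**Figure D2:**
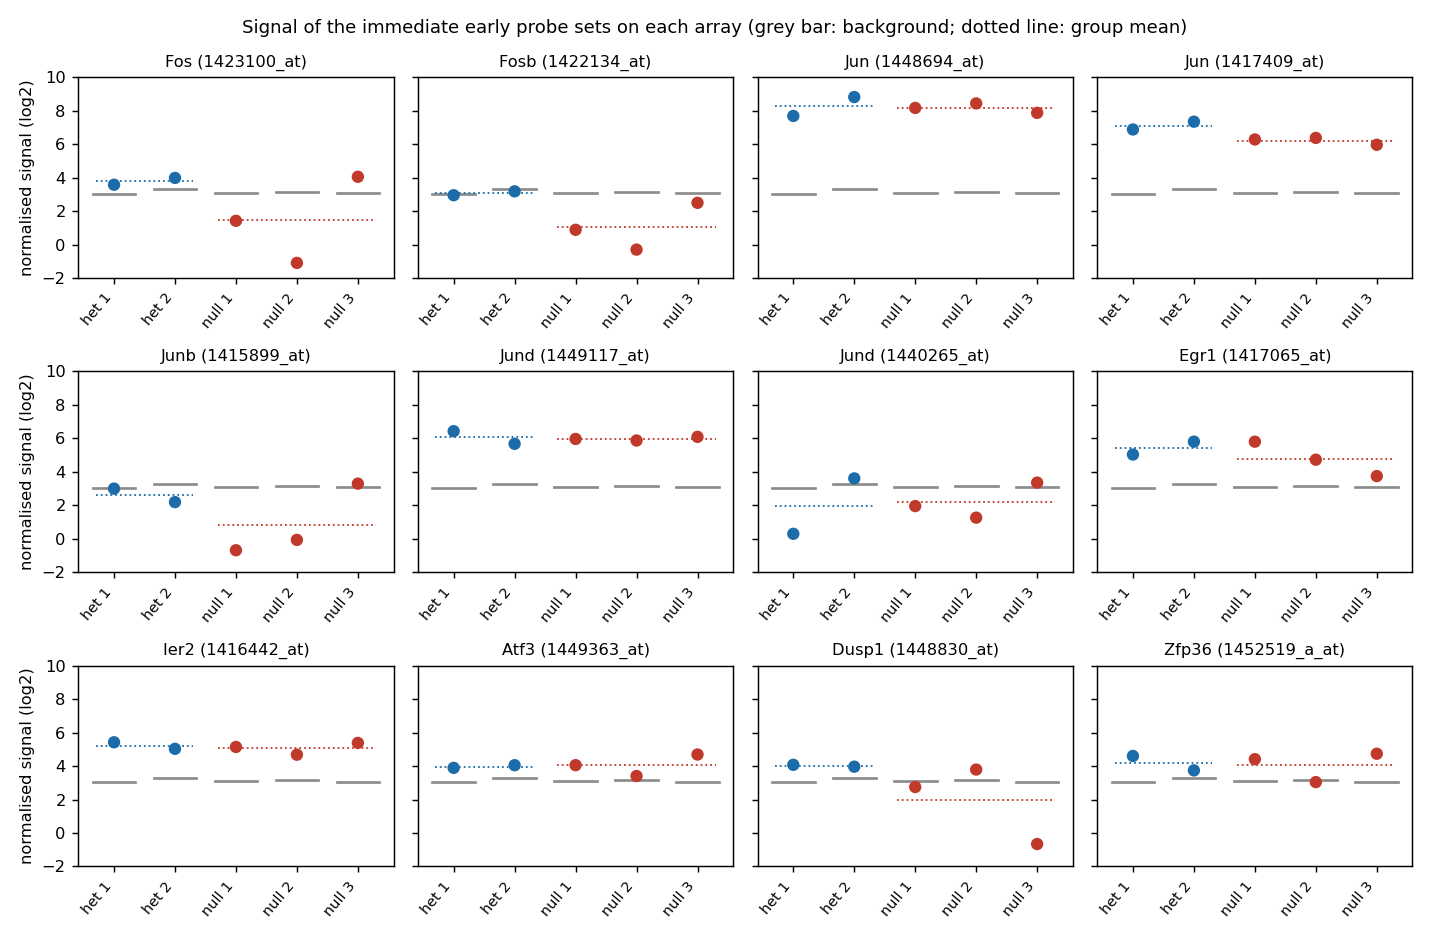
Normalised log2 signal of each member probe set on the 2 heterozygote arrays (blue) and the 3 null arrays (red), with each array's background level (grey bars) and the group means (dotted lines). Fos, Fosb and Junb lie low on null replicates 1 and 2 and near the heterozygotes on null replicate 3, whereas both Jun probe sets and Jund at 1449117_at are well above background on every array.

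Arrays of the same genotype differed widely for several members. The range over the 3 nulls exceeded the difference between group means at 11 of the 12 probe sets, and this held for 81.2% of all probe sets tested. The exception was Jun at 1417409_at, where the nulls spanned 0.41. Nulls spanned 5.15 for Fos, 4.45 for Dusp1, 3.98 for Junb, 2.80 for Fosb and 2.06 for Egr1. The low ends lay under background for the first 4 of these, so the spans are no measured folds. The 2 heterozygotes were 0.41 apart for Fos, 0.11 for Dusp1, 0.81 for Junb, 0.23 for Fosb and 0.77 for Egr1. The heterozygote gap was the wider one at 4 of the 12 probe sets, both of Jun and both of Jund. For Jun it was 1.13 against a null range of 0.56 at 1448694_at, and 0.47 against 0.41 at 1417409_at. For Jund it was 0.75 against 0.22 at 1449117_at, and 3.31 against 2.09 at 1440265_at. Whether spread differed between genotypes was not tested.

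The pooled SD within a genotype had a median of 0.86 over the 10 genes and 0.67 over all probe sets. Without null replicate 3 these medians were 0.55 and 0.61, and without null replicate 2 they were 0.70 and 0.61. They were 0.80 and 0.62 without null replicate 1, and 0.96 and 0.59 without either heterozygote. The members' wider spread thus depended on single arrays and was absent without null replicate 3. This SD moved with brightness. Its median was 0.37 for the 20815 probe sets above background on all 5 arrays and 1.23 for the 16493 above it on 1 to 4 arrays. Among members the corresponding medians were 0.42 over 6 probe sets and 1.78 over 5. Egr1 had the widest spread of the 6 bright member probe sets, with an SD of 0.90 that exceeded those of 97.1% of probe sets above background on all arrays. For Fos the SD was 2.11, above 90.2% of probe sets detected on 1 to 4 arrays. Jun at 1417409_at (0.26), Jund at 1449117_at (0.32) and Ier2 (0.33) were below the median of their class. So were Zfp36 (0.81), among probe sets above background on 1 to 4 arrays, and Fosb (1.15), among those not above it on any array.

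**Figure D3:**
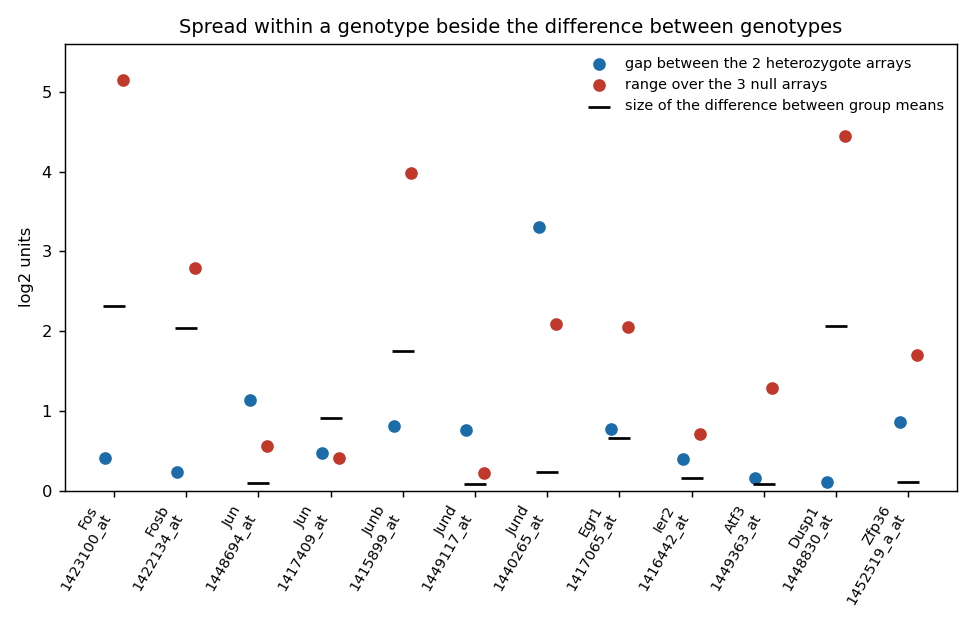
Gap between the 2 heterozygote arrays (blue), range over the 3 null arrays (red) and size of the difference between group means (black dash) for each member probe set, in log2 units. The null range exceeds the difference between means at 11 of 12 probe sets and is 5.15 for Fos.

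The members did not vary as 1 block. Fos, Fosb and Junb shared a pattern, with null replicates 1 and 2 low and null replicate 3 close to or above the heterozygotes. Those low values were all under background, and Fosb was under it on every array. Dusp1 and Egr1 were instead lowest on null replicate 3. Of the 10 genes, 5 had their lowest value on null replicate 2 (Fos, Fosb, Ier2, Atf3 and Zfp36), an array on which 20.7% of all tested probe sets had theirs. Relative to each gene's mean over the arrays, the median over the members stood at 0.46 for heterozygote replicate 1 and 0.63 for replicate 2, and the null replicates followed with -0.03, -0.53 and 0.44. Null replicate 2 also had the lowest deposited array median, 13.7. Heterozygote replicate 2, where the members' centred median was highest, had the next lowest, 14.4. The part of array brightness in the members' low values was not tested.

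Markers of other cell types also varied between these arrays. Beside the members, with 9 of 10 genes lower and a median of -0.41, red cell markers were lower in nulls for 8 of 9 (median -0.81, every null lower for 6). Leukocyte markers were lower for 8 of 10 (median -0.53) and mesenchyme markers higher for 16 of 18 (median 0.55). With values raised to background these medians were -0.46, -0.11 and 0.31. For 10 endothelial markers, the same centred median was 0.60 and -0.20 on the heterozygotes and -0.48, -0.36 and 0.85 on nulls 1 to 3. Among the nulls, replicates 1 and 2 were low and replicate 3 high, as for Fos, Fosb and Junb. Heterozygote replicate 2 was below the mean over arrays for these markers but above it for those genes. All 10 endothelial markers were measured and 7 were above background on every array. Their summed linear signal was 265 to 435 in heterozygotes and 232 to 537 in nulls, and it was higher on null replicate 2 (290.5) than on heterozygote replicate 2 (265.2). Red cell markers were above background on all arrays for 8 of 9, with sums of 9470 to 11830 in heterozygotes and 7945 to 8841 in nulls. Mesenchyme markers, 9 of 18 above background on all arrays, had sums of 1841 to 2441 in heterozygotes and 2262 to 2889 in nulls. Leukocyte markers, 2 of 10 above background on all arrays, had sums of 105 to 276 in heterozygotes and 106 to 179 in nulls. On null replicate 2, where the members had their lowest median, the centred medians of red cell and leukocyte markers were -0.52 and -0.44, each the lowest of its 5. Their summed signals were not lowest there. Red cell markers summed to 8231 on that array, against 7945 on null replicate 3. Leukocyte markers summed to 105.6, against 105 on heterozygote replicate 1. Neural crest and glial markers (4 of 7 above background on all arrays) had sums of 224 to 265 in heterozygotes and 373 to 390 in nulls. Mesothelial markers (1 of 6) had sums of 59.4 to 87.7 and 108 to 148, and those of bud epithelium 3962 to 4853 and 4850 to 6285. By gene, however, 4 mesothelial markers were lower and 2 higher in nulls (median -0.25, or -0.007 with values raised to background). Bud epithelium markers were lower for 5 and higher for 4 (median -0.07). A sum is weighted to bright genes, and Krt19 of the first list and Krt8 and Krt18 of the second were higher in every null. Among defining markers, Hba-a1, Twist1, Cd14 and Msln were not above background on any array, and no marker was listed at 0. The part of any of these cell types in the members' signals was not tested.

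**Figure D4:**
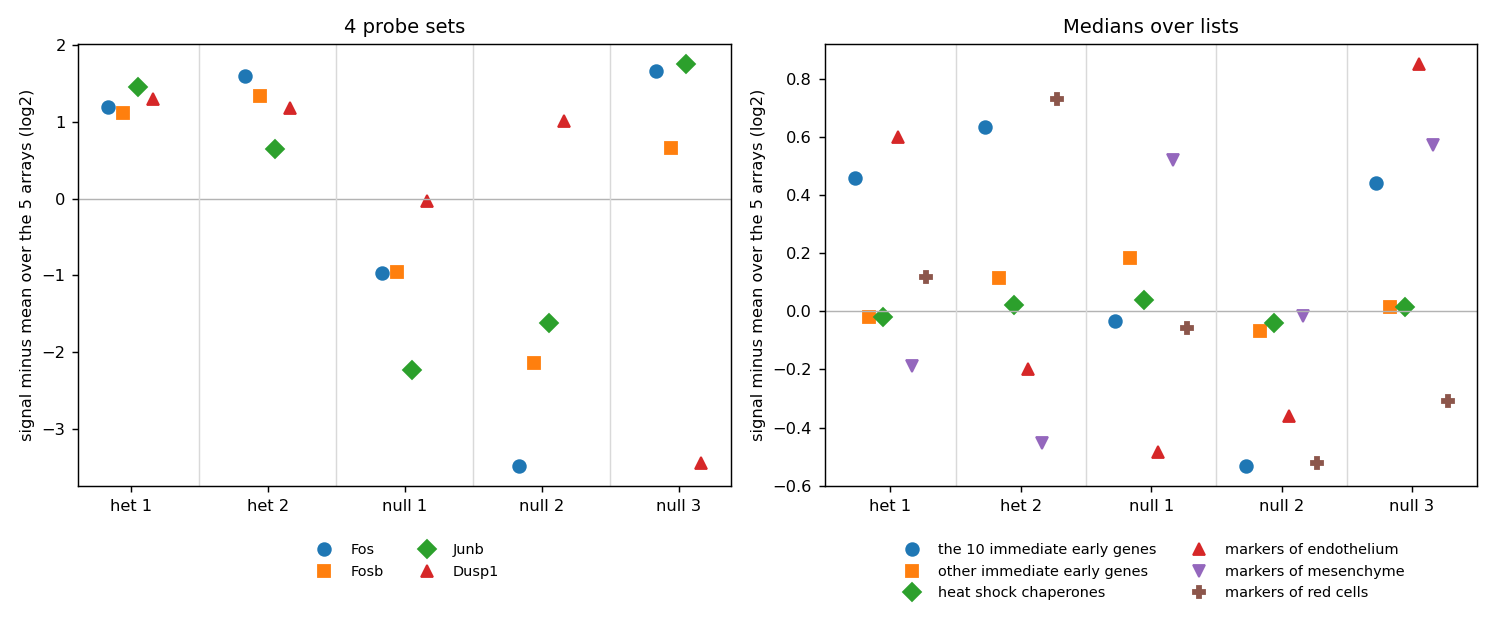
Log2 signal minus its mean over the 5 arrays for Fos, Fosb, Junb and Dusp1 (left) and the median of the same quantity over 6 gene lists (right), by array. The 10 immediate early genes have their lowest median on null replicate 2 (-0.53), where 42 other immediate early genes are at -0.07 and heat shock chaperones at -0.04.

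Other genes of the response were read from the same fits, and none was called in either fit. Of 42 other immediate early genes, 21 were lower and 21 higher in nulls, with a median difference of -0.017, and 22 were above background on all arrays. The 3 with the lowest p were Ier5l, Myc and Nr4a1. Ier5l, a relative of Ier2, read 5.02 and 5.65 in heterozygotes and 3.46, 4.11 and 4.57 in nulls (difference -1.28, SE 0.50, limma adjusted p = 0.906), with every null lower. Myc, a growth-related transcription factor, had a difference of -2.96 (limma adjusted p = 0.951), with null replicate 2 at -0.35 and the other nulls at 4.12 and 2.41, below heterozygotes at 4.72 and 5.32. Of the nulls, 2 were under background for Myc, and the difference was -1.57 with values raised to background, -1.09 with the offset and -1.75 without null replicate 2. Nr4a1, an orphan nuclear receptor of the early response, went the other way at 1.04 (limma adjusted p = 0.979), with overlapping groups. Egr3, Arc, Npas4, Nr4a3, Cebpb and Ptgs2 were not above background on any array.

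Among 12 other leucine zipper factors that can enter AP-1 dimers, 6 were lower and 6 higher (median -0.045). Jdp2, a repressor that pairs with Jun, read 3.91 and 4.56 in heterozygotes and 2.42, 1.24 and 3.89 in nulls, with null replicates 1 and 2 low as for Fos (limma adjusted p = 0.975). Batf3 had higher values in every null, at 3.34, 3.45 and 3.84 against 0.58 and 2.56 in heterozygotes, which were below background (limma adjusted p = 0.846). The small Maf factor Mafg was higher in every null by 0.61 (limma adjusted p = 0.991).

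Among upstream and feedback components, the 10 other MAP kinase phosphatases were split 5 and 5. Their median was -0.021, or -0.24 without null replicate 3 and 0.071 without null replicate 2. Dusp6, which acts on ERK, differed by -0.89 and Dusp4 by 0.65, each with groups that did not overlap (limma adjusted p = 0.979 and 0.986). For Dusp6 the nearest arrays of the 2 genotypes read 6.17 each, and the difference was -0.49 without heterozygote replicate 1. Dusp5 differed by -1.98, a value set by heterozygote replicate 1 at 4.19, since the other 4 arrays read -0.10 to 0.72. Of 14 MAP kinases and their kinases, 9 were lower and 5 higher (median -0.079), with Mapk13 at -0.58 (limma adjusted p = 0.991), or -0.34 without null replicate 1. Mapk7 and Mapk9 had differences of 0.90 and 0.39 with overlapping groups, and without heterozygote replicate 2 these were -0.35 and 0.17. Of 12 regulators of the SRF and CREB type, 10 were lower, with a median of -0.19 that became 0.013 without heterozygote replicate 2. They included Creb1, at 8.85 and 8.87 in heterozygotes and 8.64, 8.54 and 8.42 in nulls (limma adjusted p = 0.999), and the kinase gene Rps6ka5 at -1.11. The latter was -0.64 without heterozygote replicate 2 and -0.72 without null replicate 2. Elk4, a ternary complex factor, had a difference of 0.51 (limma adjusted p = 0.991), or 0.33 without heterozygote replicate 2.

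Heat shock chaperones, which respond to proteotoxic stress, had a median difference of 0.013 over 11 genes, or -0.17 with median centring in place of quantile normalisation, with 9 above background on all arrays. Their median SD within a genotype was 0.24, and their centred median stayed between -0.04 and 0.04 on every array. Hspa1b, an inducible Hsp70 gene, read 3.52 and 2.63 in heterozygotes and 3.47, 4.82 and 4.98 in nulls (difference 1.35, SE 0.64, limma adjusted p = 0.958). Its probe set can cross-match related transcripts, and its groups overlapped. Hspe1 had a difference of -0.45, with every null below both heterozygotes (limma adjusted p = 0.991). Bag3, a co-chaperone, read 7.72 and 6.08 in heterozygotes and 7.31, 6.91 and 7.92 in nulls, a difference of 0.48 with overlapping groups. Hspa1b and Bag3 were less steady than the list median, whereas Hspe1, with an SD of 0.13, was steadier. The SD was 0.77 for Hspa1b and 0.78 for Bag3, the latter above 93.7% of probe sets above background on all arrays.

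The profile of the 5 genes above background on all arrays (Jun, Jund, Egr1, Ier2 and Atf3) was taken as their median on each array. It was nearly flat, with centred medians of 0.01, 0.03, 0.01, -0.30 and 0.08 from heterozygote replicate 1 to null replicate 3. The single genes were not all flat, since Egr1 ranged from 3.74 to 5.80 over the arrays. Of 18143 other probe sets with 1 gene symbol that were above background throughout, those nearest to the median profile were of Pcnx, Fundc2, Ywhae, Tuba1a and Asap1. Their root mean square differences from it were 0.039 to 0.044. That profile has little variation to match beyond its low value on null replicate 2, and none of the 5 nearest was an immediate early gene of the lists used here.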

How the data were processed

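RNA from 5 pools of 3 buds was hybridised to 1-colour arrays. The authors deposited linear intensity values per probe set, and GCOS and RMA are named, with no version or role, per the submitters' processing notes. No background step is stated. The deposited intensities were put on a log2 scale and quantile normalised with limma 3.58.1 in R 4.3.3. After 64 control probe sets were left out, 45037 were fitted with genotype as the only term (lmFit, eBayes, two-sided, Benjamini-Hochberg over all, threshold 0.05). The method was run on simulated data with a uniform spread smaller than the median spread of these data. That run therefore does not show which changes the fit could detect here.  The labels do not say whether pools shared litters, and each p-value reflects only how these 5 pools varied.

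Gene names came from the platform annotation, and 10 of 10 members matched current RefSeq symbols by gene ID. Each gene was represented by its brightest probe set in lists, and listed genes with no probe set of 1 symbol were not analysed here. All member probe sets were named, with the 3 genes of lowest p from each related list and the 5 nearest profiles. Members and lists were chosen with earlier results of these data known. Alternatives were another normalisation, none, an offset, raised or filtered dim values, the trended fit, a block and each array left out.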

Additional observations from a re-analysis of the deposited data

How the results depend on the processing

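No member was called under any of the 12 alternatives run for that count. The median difference over the members kept its sign in all 13 of its alternatives, from -0.85 to -0.38 with an array left out. The median SD within a genotype ranged from 0.55 to 0.96 with an array left out and was 0.50 with the replicate block, 0.40 once dim values were raised and 0.33 with an offset of 16 added. The count of probe sets with every null lower ranged from 3 to 6 with an array left out.

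Several differences changed sign. With an array left out, Jun at 1448694_at ranged from -0.66 to 0.47, Jund at 1449117_at from -0.45 to 0.30 and at 1440265_at from -1.42 to 1.89. Ier2 ranged from -0.35 to 0.038, Atf3 from -0.24 to 0.40 and Zfp36 from -0.54 to 0.40. Dusp5 ranged from -4.00 to 0.037, Mapk7 from -0.35 to 2.15 and Bag3 from -0.34 to 1.30. Raised to background, Junb was at 0.015 and Jund at 1440265_at at -0.12, where the offset gave -0.053. Averaging its probe sets put Jund at 0.081. The cause was not tested beyond what each setting does.

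Replicate numbers are shared between genotypes without a stated meaning, and deviations of same-numbered arrays correlated at -0.017 and 0.008. With the replicate number as a block the members' median was -0.38 with 0 calls, and Jun at 1448694_at (0.049), Jund at 1440265_at (-0.35) and Atf3 (-0.24) changed sign. Null replicate 3 has no partner, so the block leaves it out of the difference. Signal near background limits Fos, Fosb, Junb, Dusp1, Jund at 1440265_at, Myc, Batf3, Jdp2 and Dusp5.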
